A study of Mus musculus with 6 samples.

Results

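The 51 genes described here encode receptors for glutamate, GABA and glycine in the mouse, and the set does not hold every such receptor. They were chosen by symbol from the 21938 protein-coding genes of the GENCODE annotation of GRCm38, with no measured value used. The set holds 18 ionotropic glutamate receptor subunits (4 AMPA, 5 kainate, 7 NMDA and 2 delta receptor genes), 7 metabotropic glutamate receptors, 19 GABA-A and rho subunits, 2 GABA-B subunits and 5 glycine receptor subunits. H3K27ac, an acetylated histone H3 that marks active promoters and enhancers, was measured by ChIP-seq in bulk retina of wild-type mice. All animals were 3 months old at the first of 4 unilateral elevations of intraocular pressure (IOP). In the 4xIOP group the eye was held at 30 mmHg for 1 h, 4 times with biweekly spacing, and its retina was collected on day 2 after the last elevation. The control group is the contralateral eye, which was not elevated and was collected at the same time. Each group holds 3 peak lists (n = 3), and the question put to them is whether recurring stress moves the mark. The labels do not say which control eye belongs to which treated animal, and p-values therefore measure only the spread between these lists.

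Glutamate is the transmitter of photoreceptors, bipolar cells and ganglion cells, and GABA and glycine are the transmitters of horizontal and amacrine cells. AMPA, kainate and NMDA receptors are cation channels assembled from 4 subunits each, and GABA-A and glycine receptors are chloride channels assembled from 5. Metabotropic glutamate receptors and GABA-B receptors signal through G proteins. Receptor genes of inner retinal neurons are read here in a tissue whose most abundant cells are rods. In bulk retina, fewer cells of a type and less acetylation per cell cannot be told apart.

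A promoter was counted as marked when a peak overlapped the 2.5 kb on either side of any of its transcription start sites (TSS). Few receptor promoters carried the mark. Peaks were called at 8, 5 and 29 of the 51 receptor promoters in control replicates 1, 2 and 3, and at 8, 6 and 8 in 4xIOP replicates 1, 2 and 3. Control replicate 3 stood apart from the other 5 lists, which all lay between 9.80% and 15.7% of the receptor genes. Over all protein-coding genes the share marked was 44.6% to 48.6% in those 5 lists. In control replicate 3 both shares were 56.9%. They were 21.6% and 47.6% there when each list was cut to its 16195 peaks with the highest −log10 p.

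**Figure D1:**
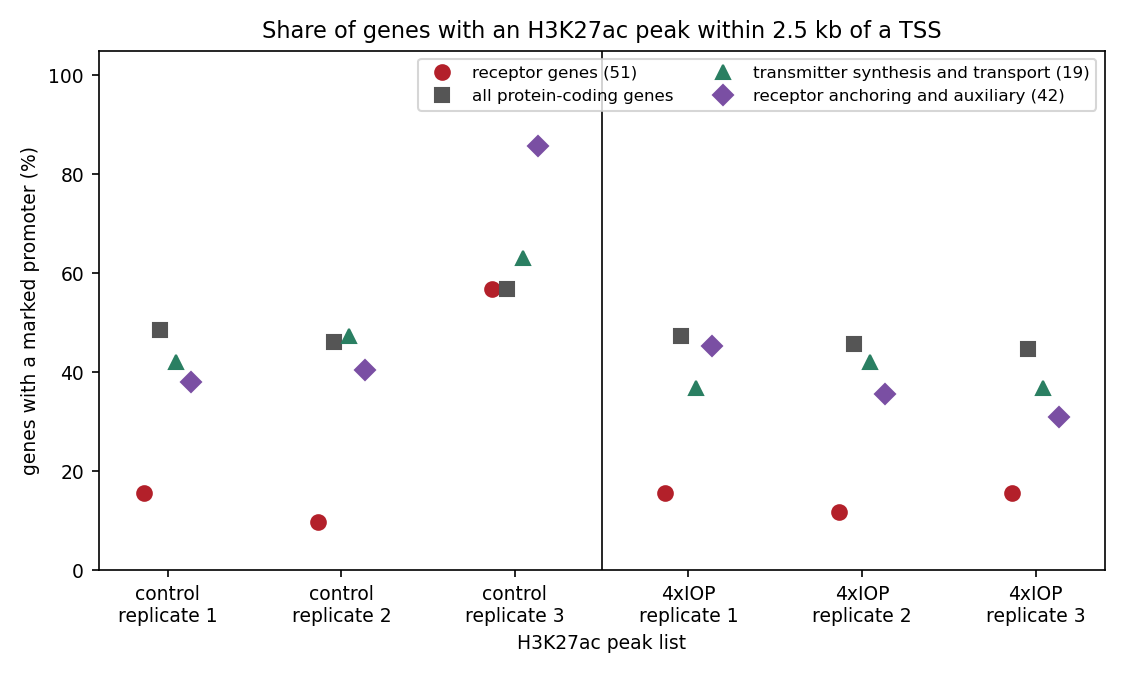
Percent of genes with an H3K27ac peak within 2.5 kb of a TSS, on the y axis, in each of the 6 peak lists, on the x axis, for the 51 receptor genes, all protein-coding genes, 19 genes of transmitter synthesis and transport and 42 genes of receptor anchoring and auxiliary subunits. The receptor genes lie at 9.80% to 15.7% in 5 lists and meet the share of all genes, 56.9%, in control replicate 3.

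Control replicate 3 was the longest list, with 36509 peaks against 16195 to 21893 in the others, and covered 20.1 Mb against 6.66 to 10.8 Mb. The lowest local background at any summit was 2.47 fragments there and 2.01 to 3.38 elsewhere. The names carried by the lists disagreed with their labels in 4 of 6, in replicates 1 and 2 of both groups, and the groups used here are those of the labels. Differences between groups that use replicates 1 and 2 rest on those 4 labels. Markers of the tissue were read in the same way. Promoters of 5 of 8 photoreceptor genes were marked in all 6 lists, and those of 5 microglial and 5 pigment epithelial genes in none. Of 6 markers of retinal ganglion cells 4 were unmarked throughout, as were 6 of 8 markers of amacrine and horizontal cells and 3 of 5 of Müller glia. All 6 bipolar cell markers were marked in control replicate 3, and 2 of them in all 6 lists. Grik1, counted among these markers, is also one of the receptor genes. Of 8 markers of liver, muscle and lens, which a retina should lack, 3 were marked in control replicate 3, 1 in each of control replicates 1 and 2, 2 in 4xIOP replicate 2 and none in 4xIOP replicates 1 and 3.

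Of the 51 receptor genes, 3 (5.88%) had a marked promoter in all 6 lists, 26 (51%) in 1 to 5 lists and 22 (43.1%) in none. Over all genes the shares were 39.5%, 18.1% and 42.4%. The receptor genes were thus unmarked about as often as other genes but seldom marked throughout. All 29 receptor genes marked anywhere were marked in control replicate 3. Without that list 13 (25.5%) were marked anywhere, against 52.4% of all genes, and the 3 marked in every remaining list were the same.

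**Figure D2:**
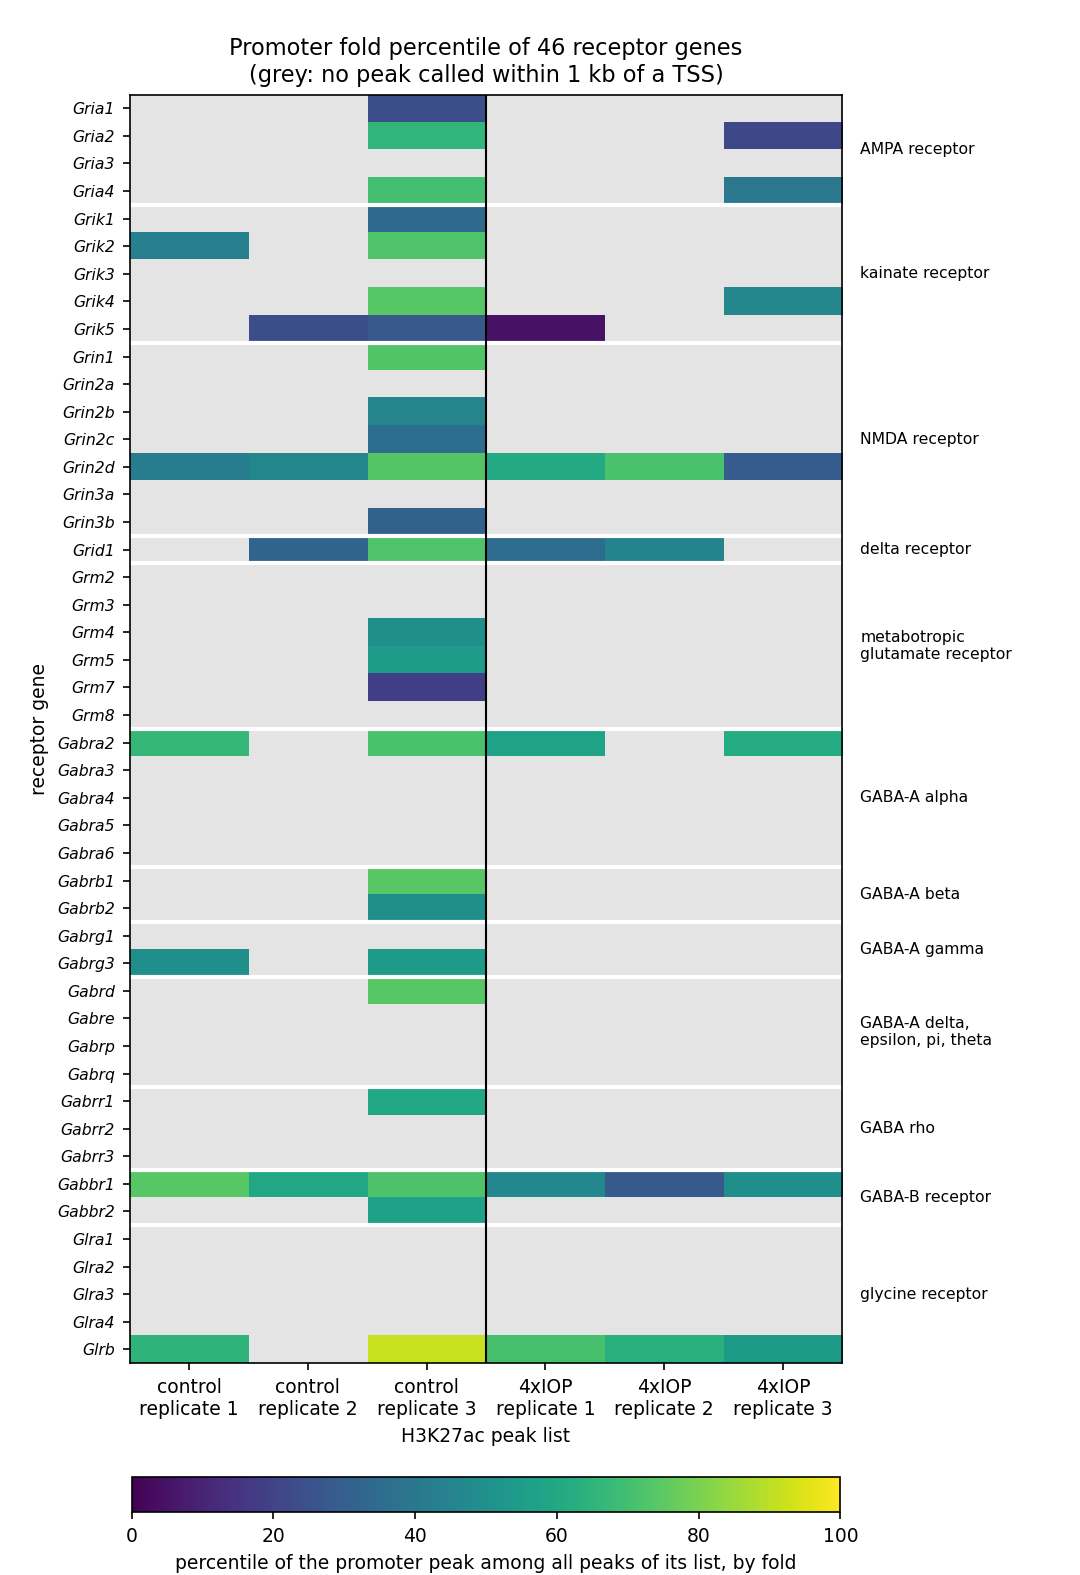
Heat map of 46 of the 51 receptor genes (rows, grouped by receptor family) in the 6 peak lists (columns), with the color giving the percentile, from 0 to 100, of the highest-fold peak within 1 kb of a TSS among all peaks of its list, and grey where no peak was called. Gabbr1 and Grin2d are filled in all 6 columns, and every row with a filled cell is filled in the column of control replicate 3.

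Promoter sequence was compared first. In the window from 250 bases before to 50 bases after a TSS, taking for each gene its start with the most CpG, the receptor genes held a median of 18 CpG dinucleotides (range 2 to 50) and all genes 15. Among genes unmarked in every list the medians were 13 for the 22 receptor genes and 4 for 9299 genes overall. At the promoters marked in all 6 lists the median over all genes was 25, and Gabbr1 held 30. Grin2d held 11 at its start with the most CpG, while its own peaks lay nearest another start. Of the 25 receptor genes with at least 20 CpG, 1 (4.00%) was marked in all 6 lists, where 67.9% of the 8943 genes with as many CpG were. Below 20 CpG the shares were 7.69% of 26 receptor genes and 20.0% of 12995 genes.

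**Figure D3:**
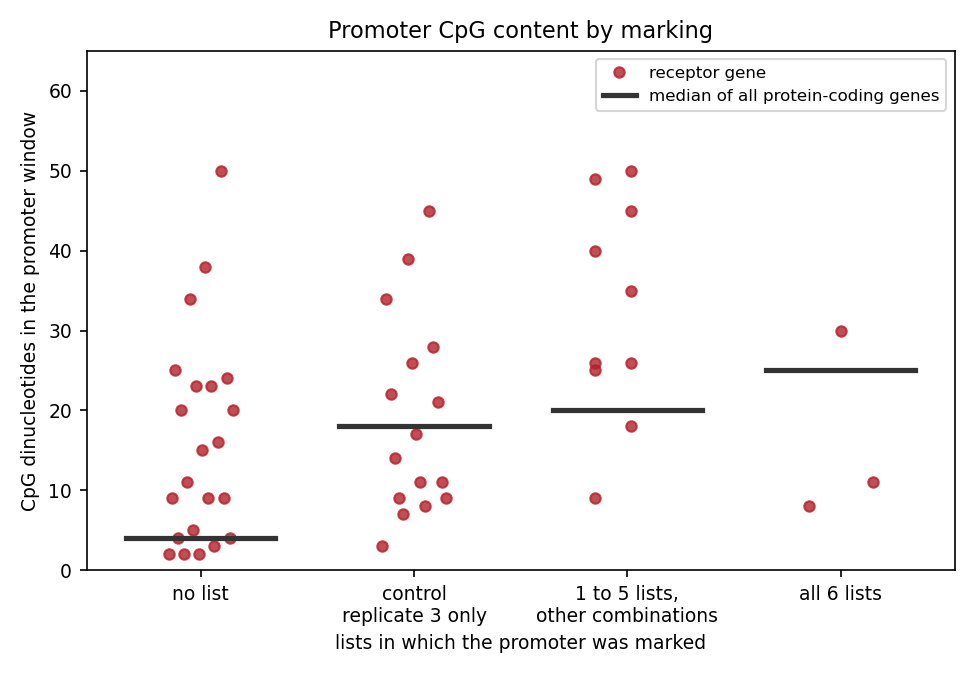
Number of CpG dinucleotides in the promoter window from 250 bases before to 50 after a TSS, on the y axis, for each receptor gene (points), grouped on the x axis by the lists in which its promoter was marked; the bar is the median of all protein-coding genes of the same class. Unmarked receptor genes reach 50 CpG, and 13 is their median against 4 for all unmarked genes.

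Receptor genes are also long, with a median span of 138 kb against 17.4 kb. Among genes longer than 100 kb, 0 of 28 receptor genes and 42.5% of 2492 genes overall were marked in all 6 lists. At or below 100 kb the shares were 13.0% of 23 receptor genes and 39.1% of 19446. With both conditions set, the counts were 0 of 13 long, CpG-rich receptor genes marked in all lists and 56.5% of the 1480 such genes overall.

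To show the range of these promoters, upstream sequences of 6 receptor genes are given (RefSeq promoter table, GRCm38.p6, 5′ to 3′ on the strand of the gene, CpG in capitals). The table matched 35 of the 51 genes. Each stretch is the 150 bases directly before a RefSeq start and overlaps no annotated exon. Gabbr1 was marked in all 6 lists, Glrb in 5, Grin1 in control replicate 3 alone, and Grm2, Gabra6 and Gabrg1 in no list. Glrb and Grin1 were chosen after their values were seen. The positions are chr17:37045816-37045965 for Gabbr1, chr3:80913661-80913810 for Glrb and chr2:25319188-25319337 for Grin1. Those of the unmarked genes are chr9:106656110-106656259 for Grm2, chr11:42321073-42321222 for Gabra6 and chr5:70842618-70842767 for Gabrg1. Gabbr1 and Gabrg1 illustrate the extremes of marking, and Grm2 is a CpG-bearing promoter with no peak.
Gabbr1: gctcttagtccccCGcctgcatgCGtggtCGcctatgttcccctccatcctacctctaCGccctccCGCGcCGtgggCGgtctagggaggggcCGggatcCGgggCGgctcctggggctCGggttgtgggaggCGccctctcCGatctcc
Glrb: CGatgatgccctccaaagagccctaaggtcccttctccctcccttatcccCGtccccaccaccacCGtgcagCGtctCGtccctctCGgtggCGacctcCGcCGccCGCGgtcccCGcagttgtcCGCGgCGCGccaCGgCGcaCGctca
Grin1: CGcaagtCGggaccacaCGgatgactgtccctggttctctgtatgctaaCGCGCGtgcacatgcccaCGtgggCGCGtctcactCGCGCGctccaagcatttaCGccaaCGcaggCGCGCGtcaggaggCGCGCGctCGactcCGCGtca
Grm2: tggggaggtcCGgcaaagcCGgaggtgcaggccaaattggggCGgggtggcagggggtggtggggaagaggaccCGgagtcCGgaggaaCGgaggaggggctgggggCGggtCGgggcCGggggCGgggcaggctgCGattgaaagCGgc
Gabra6: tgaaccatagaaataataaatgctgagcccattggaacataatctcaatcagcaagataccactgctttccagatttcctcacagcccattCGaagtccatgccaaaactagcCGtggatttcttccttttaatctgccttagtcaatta
Gabrg1: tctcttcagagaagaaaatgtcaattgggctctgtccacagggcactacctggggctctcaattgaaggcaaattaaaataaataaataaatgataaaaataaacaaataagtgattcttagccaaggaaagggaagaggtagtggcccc

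These stretches held 14, 19, 23, 12, 2 and 0 CpG in the order shown. The GGGCGG motif of Sp family factors, searched on both strands, was present in these promoter windows of 54.9% of the receptor genes and 48.7% of all genes. TATAAA, searched likewise, was found at 5.88% and 11.9%, and TAATCC, a core bound by photoreceptor homeodomain factors, at 7.84% and 6.40%. A motif match is a description of the letters, not a binding site.

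The mark at Gabbr1 and Grin2d, both called in every list, was moderate. Fold is the fragment count at the summit plus 1 over the local background plus 1, and is relative to the list it stands in. Values are those of the highest-fold peak within 1 kb of a TSS, a window in which the same genes were marked in the same lists as at 2.5 kb.

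Gabbr1, the GABA-B subunit that binds GABA, had folds of 5.18, 4.22 and 5.29 across the control lists, replicates in order, against 3.99, 3.36 and 4.32 across the 4xIOP lists. The 2 lowest values were 4xIOP lists, but the groups overlapped at control replicate 2 and 4xIOP replicate 3. The summit counts behind them were 37, 34 and 74 fragments in the controls against 30, 26 and 26 in 4xIOP. The peaks ranked between percentile 28.4 and percentile 74.1 of their lists. In the lists whose carried name matched the label the folds were 5.29 for control replicate 3 and 4.32 for 4xIOP replicate 3.

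Grin2d encodes an NMDA receptor subunit with slow deactivation. Its folds were 3.81, 3.74 and 5.40 in the controls against 4.53, 4.83 and 3.67 in 4xIOP, so that the groups overlapped. These peaks lay 624 to 796 bp inside the gene from its nearest start. The 2.5 kb window also took in a second, higher peak, with folds of 6.19, 6.92 and 6.26 in the controls against 5.77, 5.03 and 5.52 in 4xIOP. That peak had its summit 39 to 121 bp from a start of Kdelr1, which encodes a receptor that returns proteins to the endoplasmic reticulum, and 2577 to 2761 bp from the nearest start of Grin2d. It cannot be assigned to Grin2d from these lists, and no other receptor promoter shared its peak with another protein-coding gene.

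Glrb, the beta subunit that anchors glycine receptors at synapses, missed the full set by 1 list and held the highest fold of any receptor promoter. It was called at folds of 4.70 and 8.17 in control replicates 1 and 3, was not called in control replicate 2, and stood at 4.98, 4.48 and 4.49 in 4xIOP. Control replicate 3 was thus the outstanding value, at percentile 91.7 of its list, and the other 4 calls ranged from percentile 54.5 to 70.7. The 4 glycine receptor alpha subunit genes, Glra1 to Glra4, which carry the ligand site, were unmarked in every list. Beta was therefore the glycine receptor subunit gene with a called promoter.

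**Figure D4:**
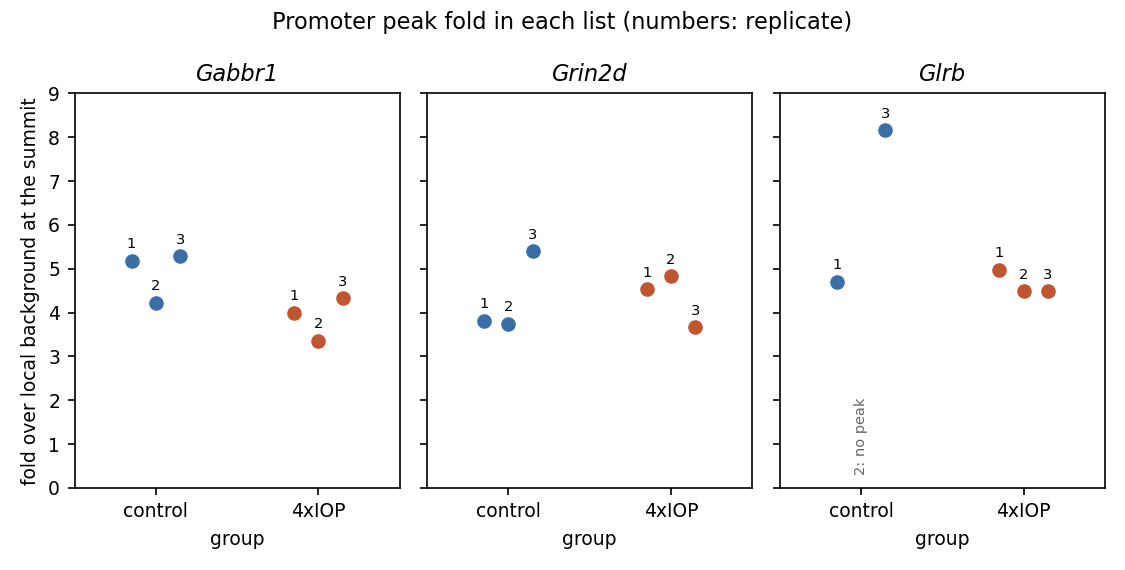
Fold over local background at the promoter peak within 1 kb of a TSS, on the y axis, for Gabbr1, Grin2d and Glrb in the 3 control and 3 4xIOP lists, on the x axis, each point being 1 list numbered by replicate. Control and 4xIOP points overlap for all 3 genes, and Glrb has no peak in control replicate 2.

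Among the AMPA receptor genes, the fast glutamate-gated channels, Gria1, Gria2 and Gria4 were marked in control replicate 3. Gria2, whose subunit limits calcium entry, had a fold of 4.81 there and 3.44 in 4xIOP replicate 3. Gria4 stood at 5.12 and 3.99 in the same 2 lists. Gria1 was called in control replicate 3 alone, at 3.14, and Gria3 in none.

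Kainate receptor genes were marked in scattered lists. Grik5 was called in control replicates 2 and 3 and in 4xIOP replicate 1, at folds of 3.13, 3.26 and 2.55, on summit counts of 44, 64 and 31 fragments. Its low folds on high counts went with local backgrounds of 13.4, 18.9 and 11.5 fragments. Grik4 was called in replicate 3 of both groups, at 5.48 and 4.21, and Grik1 in control replicate 3 at 3.46. Grik3 was unmarked although its window held 50 CpG, the highest number in the set together with Glrb.

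Grik2, which has starts at 2 separate promoters, was called in control replicate 1 at a fold of 3.86 and in control replicate 3 at 5.34, and in no 4xIOP list. The call in control replicate 1 lay at the downstream promoter, and control replicate 3 had peaks at both. Gabrg3, a GABA-A gamma subunit gene, showed the same arrangement of lists, with folds of 4.07 and 4.17 in control replicates 1 and 3. Summit counts were 14 fragments at both genes in control replicate 1, where the smallest count that gave a call over the lowest background of the list was 9. These were the 2 receptor genes whose number of marked lists differed by 2 between the groups. The difference rests on control replicates 1 and 3. Control replicate 3 was the longest list, and the name carried by control replicate 1 disagreed with its label. The share of all genes whose number of marked lists differed by 2 was not computed.

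In the NMDA receptor family the obligatory subunit gene Grin1 was called in control replicate 3 alone, at a fold of 5.38 on 27 fragments. Grin2b, Grin2c and Grin3b were also called there alone, at 3.81, 3.51 and 3.37, and Grin2a and Grin3a nowhere. Grid1, a delta receptor gene whose product binds cerebellins at synapses, was called in control replicates 2 and 3 at 3.36 and 5.30 and in 4xIOP replicates 1 and 2 at 3.63 and 3.84.

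No metabotropic receptor gene of the set was marked outside control replicate 3. Grm4, Grm5 and Grm7 were called in that list at folds of 3.99, 4.19 and 2.95. Grm2, Grm3 and Grm8 were unmarked in all 6 lists. Grm4, Grm7 and Grm8 belong to the group of receptors that act at presynaptic terminals, and Grm5 to the group coupled to phospholipase C.

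Among the GABA-A receptor genes, the beta subunit genes Gabrb1 and Gabrb2, whose products contribute to the GABA site, were called in control replicate 3 alone, at 5.48 and 3.98 (Gabrb1 at percentile 74.1). Gabra2, an alpha subunit gene, was called in control replicates 1 and 3 at folds of 4.77 and 5.19 and in 4xIOP replicates 1 and 3 at 4.39 and 4.77. Gabra3, Gabra4, Gabra5 and Gabra6 had no call. Gabra4 and Gabra5 held 34 and 38 CpG, Gabra3 and Gabra6 held 5 and 2.

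The remaining GABA receptor genes were seldom marked. Gabrd, an extrasynaptic subunit gene, was called at 5.46 in control replicate 3, and Gabre, Gabrp and Gabrq were not called. Gabrr1, a subunit of the rho receptors known from bipolar cell terminals, was called at 4.40 in that list, while Gabrr2 and Gabrr3 had no promoter peak. Gabbr2, the GABA-B subunit that couples to the G protein, was called at 4.31 in control replicate 3 alone, unlike its partner Gabbr1. Gabrg1 was unmarked. None of the 6 receptor genes on chromosome X was marked in any list, where 39.6% of the 948 genes of that chromosome were.

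In all, 16 receptor genes (31.4%) were marked in control replicate 3 alone, where the background over all genes was 5.23%. Their folds ran from 2.95 to 5.48 on 11 to 30 summit fragments. Their percentiles among all peaks of that list ran from 18.6 to 74.1, with a median of 53.6. Every one lay below 82.6, the median percentile of the marked promoters of all genes in that list. That median also takes in promoters called in every list. The percentiles of the 1147 genes marked in control replicate 3 alone were not compared. None of the other 5 lists had a receptor promoter of its own. When the 16195 peaks with the highest −log10 p were kept in each list, the receptor promoters marked were 5, 4 and 11 in the controls against 5, 3 and 8 in 4xIOP. Control replicate 3 remained the highest, with 21.6% of the receptor genes against 47.6% of all genes. Next came 4xIOP replicate 3, with 15.7% against 44.6%. The remaining lists marked 5.88% to 9.80% of the receptor genes and 42.2% to 44.4% of all genes.

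The mean number of marked receptor promoters was 14.0 ± 13.1 (SD, n = 3) in the controls against 7.33 ± 1.15 (SD, n = 3) in 4xIOP, a difference of -6.67. The difference is smaller than the spread among the controls. It was -1.33 with equal numbers of peaks and 0.833 without control replicate 3, so that its direction rests on that list. No receptor promoter was marked in all 3 control lists and no 4xIOP list, a pattern shown by 0.360% of all genes (79). None was marked in all 3 4xIOP lists and no control list, and neither was any gene (0%).

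Strength of the mark was tested with limma on normal scores of the rank of each promoter's fold within its list, for the 8669 genes marked in all 6 lists. No gene passed an adjusted p of 0.05 (0%), and 270 had an unadjusted p below 0.05, none of them a receptor gene. Gabbr1 differed by -0.48 ± 0.377 (SE) normal score units, 4xIOP minus control, with an adjusted p of 1 by limma. Its difference was -0.276 without control replicate 1, -0.281 without 4xIOP replicate 2 and -0.66 without 4xIOP replicate 3. Grin2d differed by -0.218 ± 0.412 with the Kdelr1 peak in its window and by 0.354 ± 0.394 at 1 kb, where its own peak was read.

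The same test over 10529 regions called in all 6 lists found no region (0%), with 334 unadjusted p-values below 0.05. It included 10 regions at receptor genes, of which the one at the Gabbr1 promoter had the smallest unadjusted p by limma, 0.198. The length of DNA called at a locus was then compared over 11566 genes as log2 of the base pairs covered plus 500, centered on each list. No gene passed (0%), and 655 had an unadjusted p below 0.05. Among the 14 receptor genes tested, Grid1 differed by -0.603 ± 0.355 (SE) log2 units and Gabbr1 by 0.339 ± 0.195, both with an adjusted p of 0.951 by limma.

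Within the gene bodies, more than 2.5 kb from every TSS, the 6 lists together held 32 regions at 14 receptor genes, and 37 genes had none. Peaks were called at 8, 11 and 26 of these regions in the controls and at 12, 10 and 7 in 4xIOP. Over all protein-coding gene bodies the counts were 4193, 3416 and 10548 in the controls against 3811, 4451 and 2066 in 4xIOP. The receptor regions made up 0.191% to 0.339% of these in each list, and 0.246% in control replicate 3. The means for the receptor regions were 15.0 ± 9.64 and 9.67 ± 2.52 (SD, n = 3), a difference of -5.33 that was 0.167 without control replicate 3. Receptor gene bodies were sparsely covered, with 0.245 regions per 100 kb against 1.22 over all protein-coding gene bodies. Of the 32 regions 19 (59.4%) were called in 1 list, against 6648 (52.2%) of 12731 regions overall. That list was control replicate 3 for 15 of the 19 and for 4817 of the 6648. In all 6 lists 5 (15.6%) were called, against 1078 (8.47%) overall. Per 100 kb of gene body, however, regions called in all 6 lists numbered 0.0382 at receptor genes and 0.104 overall. Neither density per 100 kb was split by gene length, and the receptor genes are longer by median.

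The 5 regions called in all lists lay in Grm8 (2 neighboring regions), Grik5 (2 neighboring regions) and Gabrr3 (1). The first Grm8 region, in an intron 127 kb from the nearest TSS, had folds of 3.11, 2.84 and 3.27 in the controls against 2.77, 2.72 and 3.41 in 4xIOP. The first Grik5 region, intronic and 24.5 kb from a TSS, stood at 2.99, 2.90 and 3.55 against 3.95, 2.82 and 2.75. The Gabrr3 region, which overlaps an exon, stood at 3.10, 2.60 and 3.37 against 2.75, 3.53 and 2.77. In each of them the control and 4xIOP values overlapped, and limma gave adjusted p-values of 1.

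These recurrent regions were weak peaks on a raised background. Their mean percentiles were 16.7 to 21.9, and the local background reached 6.32 to 12 times the lowest of the list. Over all gene bodies the median percentile of regions called in all 6 lists was 34.9, with a median background of 6.37 times the lowest of the list. The part of that background in the calls was not tested.

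**Figure D5:**
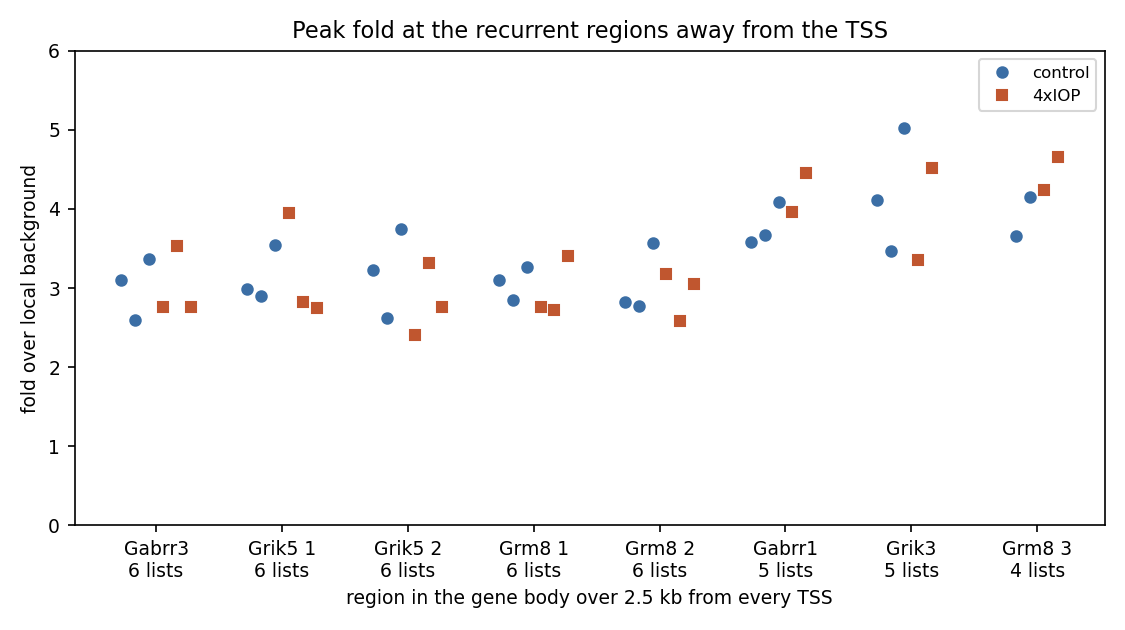
Fold over local background, on the y axis, at the 8 receptor gene regions more than 2.5 kb from every TSS that were called in at least 4 lists (x axis, numbered where a gene holds several), with circles for control and squares for 4xIOP lists. The 5 regions called in all 6 lists lie between 2.40 and 3.95, and control and 4xIOP symbols overlap at all of them.

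Other regions were called less often at higher fold. An intronic Grik3 region, 153 kb from a TSS, was called in all lists but 4xIOP replicate 3, at 4.11, 3.46 and 5.02 in the controls against 3.35 and 4.52 in 4xIOP. Grik3 thus had a recurrent region in its body and no marked promoter. An exonic region of Gabrr1 was called in the same 5 lists at 3.58, 3.67 and 4.08 in the controls against 3.96 and 4.46 in 4xIOP. A further Grm8 region was called in control replicates 2 and 3 at 3.66 and 4.15 and in 4xIOP replicates 1 and 2 at 4.24 and 4.66.

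Regions in introns of Gabrg1 and Gria1 had the highest folds among the 32 regions away from the TSS. Gabrg1 stood at 6.62 and 6.73 and Gria1 at 6.16 and 7.57, in control replicate 2 and 4xIOP replicate 3 and in no other list. The 2 regions are soft-masked as repeats over 100% and 99.3% of their length, where the median over the 32 regions was 8.38%. Reads in such sequence can come from copies elsewhere, and whether they do was not tested.

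Bases around the summits are given for 4 regions, to show the recurrent intronic sites and a repeat-derived one (GRCm38.p6, plus strand, 101 bases centered on the summit with the most fragments). Grik3 and Gabrg1 were chosen after their values were seen. The positions are chr6:27809628-27809728 for Grm8, chr7:25031044-25031144 for Grik5, chr4:125658296-125658396 for Grik3 and chr5:70768487-70768587 for Gabrg1. Capitals would mark TAATCC or its complement GGATTA, which none of the 4 windows holds.
Grm8: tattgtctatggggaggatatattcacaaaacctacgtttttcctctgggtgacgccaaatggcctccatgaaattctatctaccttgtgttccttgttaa
Grik5: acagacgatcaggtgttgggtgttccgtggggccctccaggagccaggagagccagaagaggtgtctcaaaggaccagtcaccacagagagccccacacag
Grik3: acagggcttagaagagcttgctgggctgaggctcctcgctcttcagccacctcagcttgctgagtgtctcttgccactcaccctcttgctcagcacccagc
Gabrg1: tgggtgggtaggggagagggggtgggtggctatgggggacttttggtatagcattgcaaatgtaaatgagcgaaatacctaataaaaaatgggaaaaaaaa

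Across the 32 regions TAATCC was present within 101 bases of the summit in 1, a Grm8 region called in 1 list, and over all gene bodies in 3.82% of 12731.

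Genes that work beside the receptors were read in the same way. Of 19 genes of transmitter synthesis and transport, 7 (36.8%) were marked in all 6 lists and 7 in none, with 8, 9 and 12 marked in the controls against 7, 8 and 7 in 4xIOP. The genes for GABA synthesis and vesicular loading, Gad1 and Slc32a1, were among those unmarked. Of 42 genes of receptor anchoring and auxiliary subunits, 10 (23.8%) were marked in all 6 lists and 6 in none, with 16, 17 and 36 in the controls against 19, 15 and 13 in 4xIOP. Control replicate 3 was the highest list for both sets, and both were marked in all lists more often than the 5.88% of the receptor genes.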

How the data were processed

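ChIP-seq for H3K27ac was analyzed from 6 deposited narrowPeak lists, 3 control and 3 4xIOP, 1 per labelled sample. Per the labels, reads were aligned to mm10; the submitters' processing notes name STAR 2.7.8a, MACS2, HOMER, edgeR and bedtools 2.29.2, without parameters. The deposited columns used are the summit position, the −log10 p-value with its −log10 q-value, and the fold, a ratio of the summit to its local background; the integer score the authors deposited was not used in any result. Lists hold no read totals, so depth is unknown. Summit fragments and local background were solved from each fold and Poisson p-value, and both values were recovered within 0.001 for at least 99.994% of peaks per list. Peaks were placed on GENCODE vM21 (GRCm38), using 41525 TSS positions of protein-coding genes; overlap of 1 bp sufficed. The union of the lists was merged into consensus regions.

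Differences were tested with limma 3.58.1 in R 4.3.3 on normal scores of within-list ranks and on log2(covered bp + 500) minus the list median, with Benjamini-Hochberg adjustment over all features tested; a count or score over the receptor genes was given no p. The script was tested on simulated data. Sequences came from RefSeq tables and the GRCm38.p6 genome. Receptor genes given in full were those marked in all 6 lists, those whose number of lists differed by 2 or more between groups, and those with the most distal regions called in all lists; unmarked genes are named. The receptor genes, the gene lists and the tests were chosen with earlier results of these data known. Results of 5 single receptor genes are not reported here; the counts include them.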

Additional observations from a re-analysis of the deposited data

How the results depend on the processing

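With only the 2 lists whose carried name matched the label, control replicate 3 and 4xIOP replicate 3, the difference in marked receptor promoters was -21 and that in regions away from the TSS -19, and 21 receptor promoters were marked in the control list and not in the 4xIOP list. Over all genes the control list marked 12491 and the 4xIOP list 9791. The control list was also the longer, with 36509 peaks against 16195. The share of all genes marked in the former and not in the latter was not computed, nor was it for the leave-out counts that follow. Leaving out 1 list at a time gave differences of -11.2 to 0.833 and -8.83 to 0.167, and 0 to 2 receptor promoters marked in all remaining control lists and no 4xIOP list; the 2, Gabrg3 and Grik2, appeared without control replicate 2. All other alternatives moved these differences by less than 1 SD of the controls, a spread that control replicate 3 widens. The replicate block, as the mean of the same-numbered differences, left them at -6.67 and -5.33. With equal groups that mean equals the difference of the group means, so it could not move. No receptor gene or region was called by limma under any alternative (11 for promoter ranks, 10 for region ranks, 12 for covered length), with the replicate block among them. Another alternative took the length class of the shortest peak as a term. Shortest peaks measured 187 to 195 bp in control replicates 2 and 3 and 4xIOP replicate 3. They measured 220 to 232 bp in the other lists, and what sets the classes apart was not tested. No pairing by replicate number was visible: deviations from group means correlated at -0.0167, -0.0443 and -0.144 for replicates 1, 2 and 3 in the promoter ranks. With 3 lists per group and 4 labels in doubt, this cannot tell whether same-numbered lists share an animal. Grin2d reversed to 0.354 with a promoter window of 1 kb, which leaves out the peak at Kdelr1, and to 0.165 without control replicate 2, where the cause was not tested; leaving out 1 list at a time gave it -0.637 to 0.165. Receptor genes unmarked in every list rose from 22 to 38 without control replicate 3, a count chosen after seeing the data, as were the counts for control replicate 3 alone and the splits by length and CpG. Lists of called peaks hold no values below the calling threshold, so an unmarked promoter is one at which no peak was called at this depth. With 3 lists per group and 1 list apart from the rest, small differences were not detectable.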
